A study of Mus musculus with 12 samples.

Results

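The transcriptional effect of ISRIB was examined in M1-like macrophages, by setting the 3 libraries from ISRIB-treated M1 cells against the 3 from vehicle-treated M1 cells. These 6 libraries, chosen by their sample titles, belong to a series of 12. The cells were bone marrow-derived macrophages (BMDM) of the mouse, grown out of marrow for 6 days with the growth factor M-CSF at 10 ng/ml. Vehicle M1 cells received DMSO for 1 h and then lipopolysaccharide (LPS, 10 ng/ml) with interferon-γ (IFN-γ, 25 ng/ml) for 16 h while DMSO remained present. ISRIB M1 cells were handled the same way with 50 nM ISRIB in place of DMSO. Both groups therefore share the stimulus and differ in the compound. The other 6 libraries are M0 cells with vehicle or ISRIB. They entered the filter on low counts, the scaling of libraries and the estimate of the spread between replicates. A gene could therefore be tested through its M0 counts, and 2350 of the 2356 tested genes had any count in M1 libraries. The labels name no mouse strain, age or sex, and they call the replicates biological without saying which came from the same animal, so p-values measure the spread between these samples.

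The integrated stress response (ISR) is a signalling pathway in which kinases such as PKR, PERK, GCN2 and HRI phosphorylate the translation factor eIF2. Phosphorylated eIF2 blocks its exchange factor eIF2B, protein synthesis drops, and the transcription factor ATF4 is translated more and drives genes of amino acid supply and stress adaptation. ISRIB binds eIF2B and keeps it active when moderate amounts of phosphorylated eIF2 are present. LPS with IFN-γ drives macrophages to the M1 state, in which NF-κB and IRF factors induce cytokines, chemokines and interferon-stimulated genes (ISGs). The series title names a role of the ISR in macrophage inflammation as its subject, and the comparison asks which transcripts differ when the pathway's inhibitor is present during M1 stimulation.

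Libraries of the M1 cells held 439976 to 493218 counts over 4857 to 5665 gene symbols, so that 1 count was worth 2.25 to 2.57 CPM (the count relative to library size, after TMM scaling). A symbol at 0 counts could hold up to 3 counts, or 6.74 to 7.71 CPM. These limits cover counting error only and take each count as independent. As a check of the M1 label, vehicle M1 cells had log2 fold changes over vehicle M0 cells of 9.73 for Cxcl9, 8.12 for Tap1 and 5.71 for Acod1, all genes induced by IFN-γ or LPS, and each passed the edgeR quasi-likelihood test. These are fitted values that rest on few or no counts in vehicle M0 cells, so they give a direction and not a bounded size. Of 18 macrophage markers 17 had counts in M1 libraries, among them Adgre1, Csf1r, Cd68 and Lyz2, and Mrc1 was at 0. Their summed level was 527 to 882 CPM with vehicle and 761 to 930 CPM with ISRIB. All 11 T and NK cell markers and all 9 fibroblast markers were at 0, and neutrophil markers summed to at most 19.2 CPM with 9 of 12 at 0. Mitochondrial symbols were also at 0 in these libraries, so a 0 does not show that a transcript or a cell type was absent.

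An annotation feature touches most values that follow. Of the 2356 genes tested, 1561 (66.3%) have exons that overlap those of an opposite-strand gene, beside 5838 of all 24171 symbols matched to the annotation. The 1561 hold 90.5% to 92.2% of the counts that could be placed in M1 libraries. Among the 745 well-counted genes (averaging 50 counts or more over the 6 M1 libraries) the overlap reached 645 (86.6%). Mitochondrial symbols were at 0 and ribosomal protein symbols took 0.0567% to 0.0677% of a library. The libraries were made with a strand-specific kit, and the strand setting of the counting is not given in the sources used here. Counts listed under such a symbol may belong to its own strand or to its neighbour's, and these cannot be told apart. Neighbours are therefore named below for most such genes. Oasl1, Tap1, Cebpb, Yars, Eif2ak2, Ppp1r15a, Ppp1r15b, Hsp90b1, Pfkp, Aldoa, Hif1a and Csf1r also have one, which is not named. For symbols with no annotated neighbour the strand of the counts is not known either. The 760 tested genes of this kind held 5.6% to 6.35% of the placed counts.

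The promoters of 3 genes are shown as examples of elements for which all tested genes were later split: Ifit1 and Cxcl10 carry the core of the interferon-stimulated response element, and Atf3, an ISR gene, carries the ATF4-C/EBP element. Sequences are from RefSeq, build GRCm38.p6, and run from 250 bases before to 50 bases after the gene's start. They lie at chr19:34640639-34640938 on the plus strand, at chr5:92348840-92349139 on the minus strand and at chr1:191183284-191183583 on the minus strand. Capitals mark matches to GAAANNGAA in Ifit1 and Cxcl10 and to TGATGNAA in Atf3, searched on both strands, where N is any base.
Ifit1: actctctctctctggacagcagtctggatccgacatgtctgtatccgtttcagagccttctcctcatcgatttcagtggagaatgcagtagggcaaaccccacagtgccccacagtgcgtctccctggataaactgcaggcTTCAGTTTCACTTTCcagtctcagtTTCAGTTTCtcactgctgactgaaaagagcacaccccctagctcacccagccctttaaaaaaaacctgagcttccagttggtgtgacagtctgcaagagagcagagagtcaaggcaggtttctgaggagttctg
Cxcl10: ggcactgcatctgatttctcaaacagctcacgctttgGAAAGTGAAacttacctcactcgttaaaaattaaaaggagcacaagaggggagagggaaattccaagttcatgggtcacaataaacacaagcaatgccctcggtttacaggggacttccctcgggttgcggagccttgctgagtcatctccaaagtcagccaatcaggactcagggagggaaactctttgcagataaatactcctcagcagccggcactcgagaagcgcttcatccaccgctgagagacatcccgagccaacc
Atf3: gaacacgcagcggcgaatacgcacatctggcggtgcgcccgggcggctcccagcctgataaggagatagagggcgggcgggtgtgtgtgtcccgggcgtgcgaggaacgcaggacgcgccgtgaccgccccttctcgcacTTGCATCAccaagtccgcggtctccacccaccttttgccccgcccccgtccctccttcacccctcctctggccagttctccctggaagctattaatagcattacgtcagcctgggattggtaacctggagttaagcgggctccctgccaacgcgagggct
In Ifit1 the search found 3 matches, of which 2 overlap each other. The response element core occurs in 2812 of 32851 promoter windows (8.56%) and the ATF4-C/EBP element in 1304 (3.97%), with 145 windows holding both. A match is a description of the letters and not a measured binding site.

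No gene passed the test between ISRIB M1 and vehicle M1 cells. Of 2356 genes 0 (0.0%) had an adjusted p under 0.05 by the quasi-likelihood test of edgeR, corrected over all genes by Benjamini-Hochberg. At an unadjusted p under 0.05 there were 64 genes with higher counts under ISRIB (2.72% of those tested) and 70 with lower counts (2.97%). The 2 groups of 3 libraries did not overlap in 127 genes that were higher under ISRIB (5.39%) and in 146 that were lower (6.2%). Other tools on the same genes also called 0, with 138 genes at an unadjusted p under 0.05 by DESeq2 and 119 by limma-voom. The lowest adjusted p was 0.319, for Vgll4, a cofactor of TEAD transcription factors, by the same edgeR test. Vgll4 had 1, 6 and 10 counts with vehicle and 0 in each ISRIB library. It passed the count filter through M0 cells and averaged 2.833 counts in M1 libraries. Its vehicle mean was 1.97 times a floor of 3 counts in each ISRIB library, without allowance for the spread of the vehicle counts.

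The intervals give the size of difference that these libraries bound. In the 745 well-counted genes the median log2 fold change was -0.01 and the median absolute log2 fold change was 0.12, with 362 genes higher and 383 lower under ISRIB. All of these genes lay between -0.75 and 0.78. The 95% interval of the log2 fold change reached a median of 0.39 to either side, a factor of 1.31. It lay wholly within a 2-fold change for 697 of the 745 genes (93.6%) and within a 1.5-fold change for 420 (56.4%). With intervals widened by Bonferroni's method for all 745 genes, 324 (43.5%) remained bounded within 2-fold.

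These bounds tightened with counts. From a mean of 1000 counts upward, 84 genes had a median interval reach of 0.23 to either side, a factor of 1.17, and 98.8% of them were bounded within 1.5-fold. Of the 72 genes with 500 to 1000 counts, 98.6% were bounded within 2-fold, and the exception was Basp1. Among 241 genes with 50 to 100 counts the factor was 1.46 and 83.4% were bounded within 2-fold. Below that the data bounded little: the factor was 1.81 for 452 genes with 20 to 50 counts and 3.11 for 1159 genes with fewer than 20, of which 0.777% were bounded within 2-fold. Most cytokine and stress genes named below fall in these last 2 classes.

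**Figure D1:**
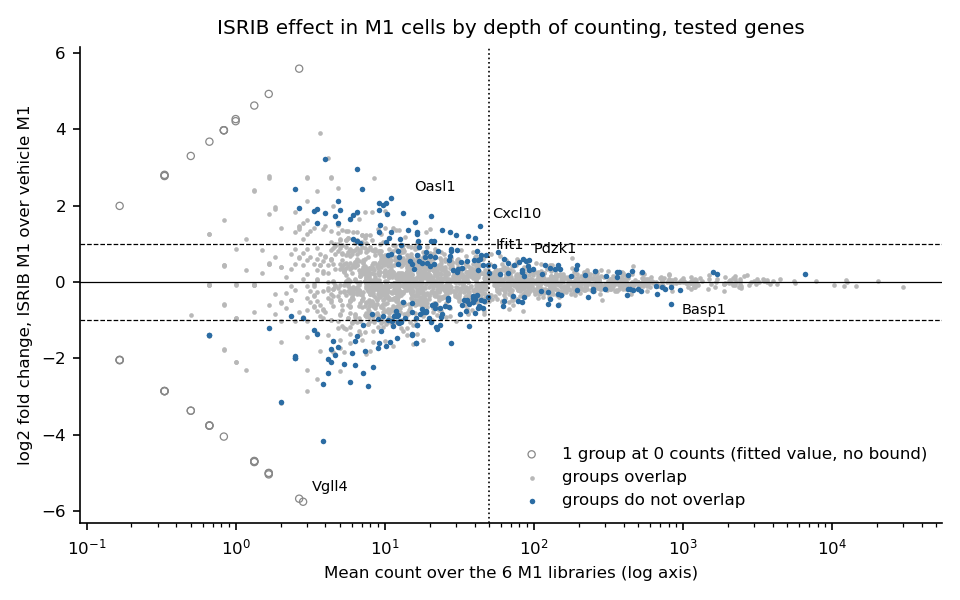
Each point is 1 tested gene, with its mean count over the 6 M1 libraries on a log axis and its log2 fold change, ISRIB M1 over vehicle M1, on the vertical axis; blue points have groups that do not overlap and hollow points have 1 group at 0 counts. The spread narrows with counts, and to the right of the dotted line at 50 counts all genes lie between -0.75 and 0.78.

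**Figure D2:**
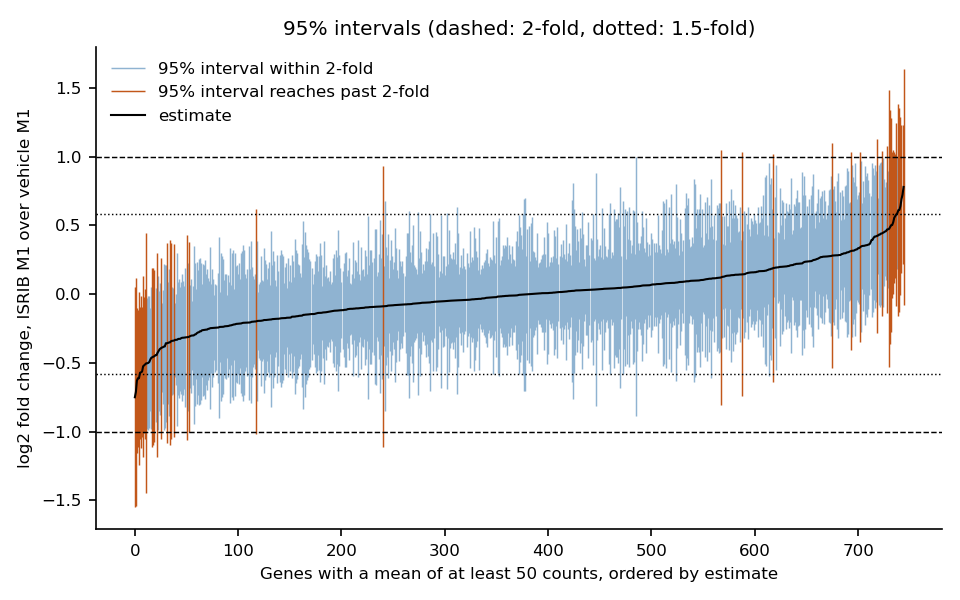
Log2 fold change, ISRIB M1 over vehicle M1 (black line), with its 95% interval (vertical bars) for each of the 745 well-counted genes, ordered by the estimate; dashed lines mark a 2-fold and dotted lines a 1.5-fold change. The blue intervals, 697 of 745, stay within 2-fold, and the orange ones reach past it.

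The symbols with the most counts differed little between groups. AV051173, a long non-coding RNA gene whose span at chr4:116684962-116686022 overlaps that of the peroxiredoxin gene Prdx1 in RefSeq, had 75830 ± 6453 CPM (SD, n = 3) with vehicle and 69020 ± 5895 with ISRIB. Its log2 fold change of -0.14 had an interval of -0.33 to 0.06. Tmem132a, which lies opposite the lysosomal transporter gene Slc15a3, had 49070 ± 1515 CPM with vehicle and 50080 ± 1499 with ISRIB, a log2 fold change of 0.03 (-0.15 to 0.21). The symbol Mir6381, a microRNA gene opposite the interferon-induced GTPase gene Gbp2, gave -0.10 (-0.39 to 0.19). Sla2, opposite Rab5if, gave 0.01 (-0.19 to 0.21), and Ddb2, opposite the lysosomal acid phosphatase gene Acp2, gave 0.06 (-0.18 to 0.29). Each of these 5 was bounded within 1.5-fold. Among the narrowest intervals were also those of 3110062M04Rik, Zfp385c and Snx22, with log2 fold changes between -0.11 and 0.02, and these lie opposite Tmem140, Nkiras2 and the cyclophilin gene Ppib.

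At the other end, 21 of the 745 well-counted genes had both an unadjusted p under 0.05 and groups that did not overlap, 11 higher and 10 lower under ISRIB. Of the 745, 32 had such a p and 69 had groups that did not overlap, beside 134 and 273 of all 2356 tested genes. An opposite-strand neighbour was present for 18 of the 21, a share like the 86.6% of all well-counted genes. The 21 were picked by p, so their intervals leave out 0 by this choice. Their adjusted p by the edgeR quasi-likelihood test was 0.806 or 0.831 for the 10 described here. Pdzk1, a scaffold protein of membrane transporters (opposite Gpr89), had 73, 68 and 56 counts with vehicle and 117, 106 and 90 with ISRIB. All 3 ISRIB libraries lay above all 3 vehicle libraries, and the log2 fold change was 0.59 (0.18 to 1.00). Ccpg1, a receptor that targets endoplasmic reticulum for autophagy (opposite Pigb), had 169, 138 and 169 counts with vehicle and 188, 256 and 247 with ISRIB, a log2 fold change of 0.46 (0.13 to 0.78). The non-coding or clone-named symbols A530088E08Rik, Gm20319 (opposite the interleukin 1 co-receptor gene Il1rap) and 4930414N06Rik (opposite Slf2) had log2 fold changes of 0.57, 0.56 and 0.46.

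Basp1, a membrane-bound signalling protein with no opposite-strand neighbour, was the most counted of the genes with lower values. It had 801, 989 and 1140 counts with vehicle and 721, 893 and 467 with ISRIB. In CPM the groups did not overlap, with 2429 ± 380 against 1634 ± 478 (SD, n = 3), and the third ISRIB library was the lowest. Its log2 fold change was -0.57 (-1.05 to -0.09). In M0 cells ISRIB gave 0.88 with an adjusted p of 0.294 by the edgeR quasi-likelihood test. The difference between both effects had an adjusted p of 0.183 by the same test, so neither passed. Bcl2l14, a BCL2 family member (opposite 4933406J09Rik), had a fitted log2 fold change of 8.90 between vehicle M1 and vehicle M0 cells, which rests on few or no M0 counts. It had 190, 166 and 157 counts with vehicle and 130, 128 and 96 with ISRIB. All 3 ISRIB libraries lay below the vehicle libraries, at -0.61 (-1.11 to -0.11). Lrsam1 (an E3 ubiquitin ligase, opposite Rpl12), Fez2 (opposite Crim1) and Narfl (opposite Haghl) had log2 fold changes of -0.63, -0.56 and -0.52.

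**Figure D3:**
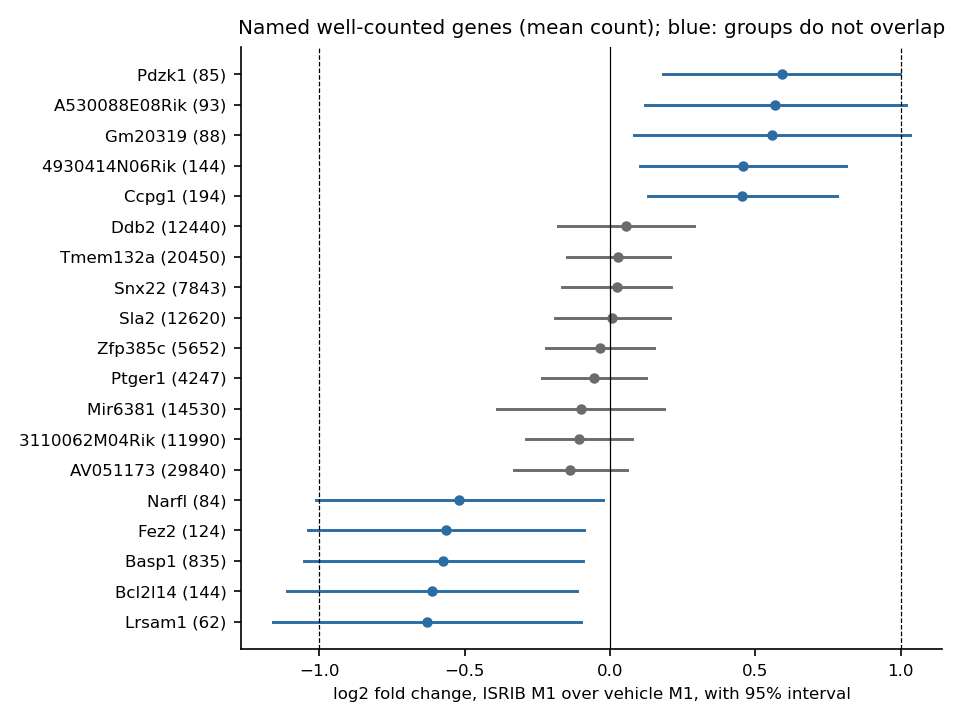
Log2 fold change, ISRIB M1 over vehicle M1 (points), with its 95% interval (bars) for the named well-counted genes, with the mean count over the 6 M1 libraries in brackets; the solid line marks 0 and the dashed lines a 2-fold change. Genes with the most counts or narrowest intervals (grey) lie close to 0, as for Tmem132a (-0.15 to 0.21), and the genes whose groups do not overlap (blue) have wider intervals, as for Pdzk1 (0.18 to 1.00).

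Of the ISR, little could be measured. Among 40 ATF4 and ISR target genes 25 had any count in M1 libraries and 7 were tested, of which 0 passed the test, 2 were higher and 5 lower under ISRIB. Their median log2 fold change was -0.18, beside -0.01 over all 2356 tested genes. Atf4 itself, the transcription factor at the centre of the pathway, was below the test's count minimum with 8, 0 and 6 counts with vehicle and 0 in all 3 ISRIB libraries. The vehicle mean of 11.5 CPM was 1.62 times the floor of 3 counts in each ISRIB library. This ratio takes no account of the spread of the vehicle counts. Atf4 was not tested, and 1 vehicle library was also at 0. Trib3 and Chac1, ATF4 targets that act on AKT signalling and on glutathione, were at 0 in all 6 libraries. Asns, the asparagine synthetase gene, had 0 in each vehicle library and 2, 4 and 0 counts with ISRIB. Psat1, of serine synthesis, had 2, 0 and 2 against 0, 2 and 8. Ppp1r15a, the stress-induced eIF2 phosphatase subunit, had 4, 0 and 0 counts with vehicle and 0 with ISRIB. None of these 6 genes entered the test.

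The ISR genes with enough counts gave wide intervals around 0. Atf5, a stress-induced transcription factor (opposite Il4i1), had 108, 102 and 113 counts with vehicle and 80, 111 and 112 with ISRIB, and 2 of the ISRIB libraries were at the vehicle level. Its log2 fold change was -0.18 (-0.63 to 0.28), so a change beyond 2-fold lay outside the interval. Ddit3, which encodes CHOP, had 44, 27 and 29 counts with vehicle and 26, 34 and 35 with ISRIB, and the groups overlapped at -0.16 (-0.86 to 0.54). Ddit3 lies opposite the methionyl-tRNA synthetase gene Mars, which gave -0.21 (-0.77 to 0.35). Atf3 had 26, 15 and 29 counts with vehicle and 11, 31 and 19 with ISRIB, and its interval of -1.48 to 0.91 left a change beyond 2-fold possible in the downward direction. Psph, of serine synthesis (opposite Cct6a), had 8, 9 and 9 counts against 17, 15 and 16, without overlap, and an interval of -0.39 to 2.00. Cebpb had 24, 20 and 15 against 6, 23 and 7 counts.

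Among 20 cytoplasmic aminoacyl-tRNA synthetases, a class with many ATF4 targets, 3 were tested and 0 passed. Qars gave 0.03 (-0.74 to 0.80). Yars had 8, 0 and 2 counts with vehicle and 0 with ISRIB, and it passed the count filter through M0 cells. Its vehicle mean was 1.17 times the floor, without allowance for spread, and rests on 1 vehicle library above 3 counts. Of 14 genes for eIF2, eIF2B and the eIF2 kinases and phosphatases, 2 were tested. Eif2ak2, which encodes the interferon-induced kinase PKR, had 72, 43 and 37 counts with vehicle and 46, 98 and 58 with ISRIB, at 0.31 (-0.41 to 1.03). Ppp1r15b, the constitutive eIF2 phosphatase subunit, gave -0.18 (-1.31 to 0.94). Across all tested genes with a promoter, the 55 with an ATF4-C/EBP element had a median log2 fold change of -0.05 and the 1788 without one -0.01. None of the 55 passed the edgeR quasi-likelihood test, and 3 had an unadjusted p under 0.05, beside 98 of the 1788.

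Of 27 targets of the XBP1 and ATF6 arms of the endoplasmic reticulum stress response, 8 were tested, 0 passed, and 4 were higher and 4 lower (median -0.05). Canx, the lectin chaperone calnexin, had 19, 18 and 20 counts with vehicle and 40, 41 and 28 with ISRIB, without overlap, and its interval ran from -0.04 to 1.75. Calr, the related chaperone calreticulin, had 57, 28 and 51 counts with vehicle and 39, 21 and 21 with ISRIB, with an interval of -1.72 to 0.12. Ssr3, of the translocon complex, had 14, 16 and 11 counts against 4, 2 and 8. The chaperones Hspa5 and Hsp90b1 gave -0.15 and 0.06 with intervals that reached past 2-fold on both sides for Hspa5 (-1.50 to 1.19) and stayed within it for Hsp90b1 (-0.83 to 0.94).

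No interferon-stimulated gene passed the test. Of 57 ISGs 28 were tested, and 21 were higher and 7 lower under ISRIB, with a median log2 fold change of 0.29. At an unadjusted p under 0.05 there were 3 higher and 0 lower, where 2.72% and 2.97% of all tested genes were. The groups did not overlap for 4 that were higher and 2 that were lower, beside 5.39% and 6.2% of all tested genes. The second replicates decided this balance: the members' median, taken as log2 CPM minus each gene's mean over the 6 libraries, was -0.58 in the second vehicle library and 0.60 in the second ISRIB library. In the other vehicle libraries it was 0.26 and -0.04, and in the other ISRIB libraries -0.06 and 0.03. Without both second replicates 13 of 28 genes were higher and the median was -0.08. The second vehicle library also had the fewest counts and symbols, and the second ISRIB library the most. The 760 tested genes with no opposite-strand overlap also had their lowest and highest medians in these 2 libraries, -0.14 and 0.12. For the 673 of them in no list the medians were -0.07 and 0.09. The part of depth in the ISG values was not tested.

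**Figure D4:**
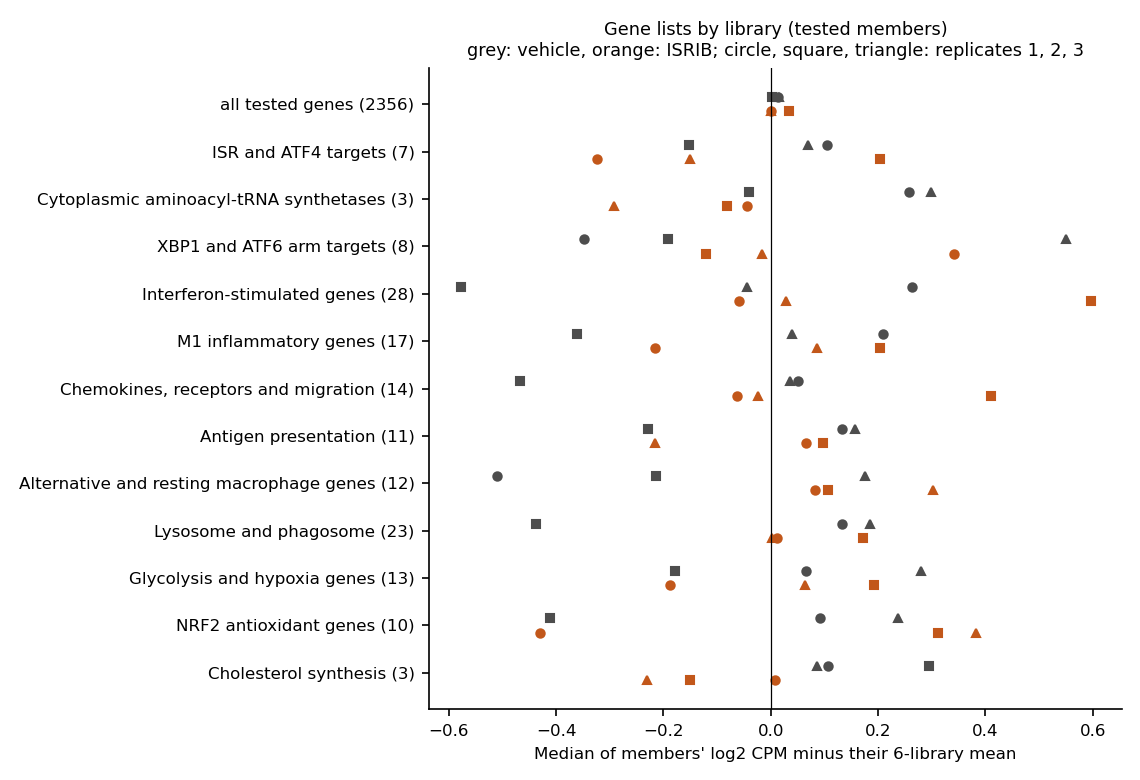
Median over the tested members of each list of log2 CPM minus the gene's mean over the 6 M1 libraries, with 1 mark per library; the number of tested members follows each list's name. For interferon-stimulated genes the squares, which are the second replicates, lie farthest apart (-0.58 with vehicle and 0.60 with ISRIB), and the other 4 libraries lie between -0.06 and 0.26.

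Single ISGs differed in their values. Cxcl10 at chr5:92346638-92348889, a chemokine that attracts CXCR3-bearing T cells, had 22, 14 and 31 counts with vehicle and 62, 74 and 58 with ISRIB, or 55.2 ± 19.3 against 152 ± 15.3 CPM (SD, n = 3). Every ISRIB library lay above every vehicle library. The log2 fold change was 1.46 (0.53 to 2.39) with an unadjusted p of 0.00381 and an adjusted p of 0.806 by the edgeR quasi-likelihood test. It kept between 1.16 and 1.81 over 17 other settings, where the lowest adjusted p was 0.328. Cxcl10 overlaps Art3 on the opposite strand by 133 bases. Ifit1 at chr19:34640871-34650009, which binds viral RNA lacking a host cap and has no opposite-strand neighbour, had 30, 19 and 23 counts with vehicle and 56, 49 and 63 with ISRIB. All 3 ISRIB libraries were above the vehicle libraries, at 1.15 (0.20 to 2.09). Oasl1, of the oligoadenylate synthetase family, had 10, 6 and 11 counts against 32, 38 and 25, again without overlap, at 1.73 (0.34 to 3.12). The adjusted p of Ifit1 and of Oasl1 was 0.806 in the same edgeR test.

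Related ISGs had values on both sides of 0. Ifit2, a relative of Ifit1 with more counts, had 258, 173 and 248 with vehicle and 281, 302 and 283 with ISRIB. The groups did not overlap, and its log2 fold change of 0.28 had an interval of -0.21 to 0.76. Cxcl9, a chemokine for the same receptor as Cxcl10, had 112, 78 and 82 counts with vehicle and 92, 108 and 98 with ISRIB, at 0.05 (-0.53 to 0.63). Rsad2, which encodes the antiviral enzyme viperin, had 198, 77 and 136 against 295, 218 and 157 counts, with overlap, at 0.64 (-0.01 to 1.29). Mx1 had 10, 10 and 12 counts with vehicle and 33, 44 and 12 with ISRIB, at 1.39 (-0.05 to 2.82). Igtp, an interferon-induced GTPase, had 10, 0 and 2 counts against 10, 34 and 4, at 1.87 (-0.50 to 4.23). Isg15, the ubiquitin-like modifier, had 20, 14 and 15 counts with vehicle and 3, 10 and 12 with ISRIB, and Parp14 was also lower without overlap, at -0.47 (-1.90 to 0.96). Whether the ISGs differ from each other in their response was not tested.

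The symbols opposite ISGs, which carried far more counts, were bounded close to 0. All 4 with enough counts were within 2-fold: Mir6381 opposite Gbp2 (given above), Slfn5os opposite Slfn5 with 2537 to 3480 counts at 0.09 (-0.22 to 0.39), 9330175E14Rik opposite the class I transactivator gene Nlrc5 at 0.11 (-0.42 to 0.65), and Phrf1 opposite Irf7. Phrf1 had 298, 217 and 239 counts with vehicle and 332, 248 and 236 with ISRIB, at 0.05 (-0.40 to 0.49). Irf7, a master regulator of type I interferon genes, gave -0.004 under its own symbol with an interval of -0.96 to 0.95. Across all tested genes with a promoter, the 183 with the response element core had a median log2 fold change of 0.00 and the 1660 without it -0.01. The quartiles of the 183 were -0.24 and 0.26, 11 had an unadjusted p under 0.05 beside 90 of the 1660, and 0 passed the edgeR quasi-likelihood test.

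**Figure D5:**
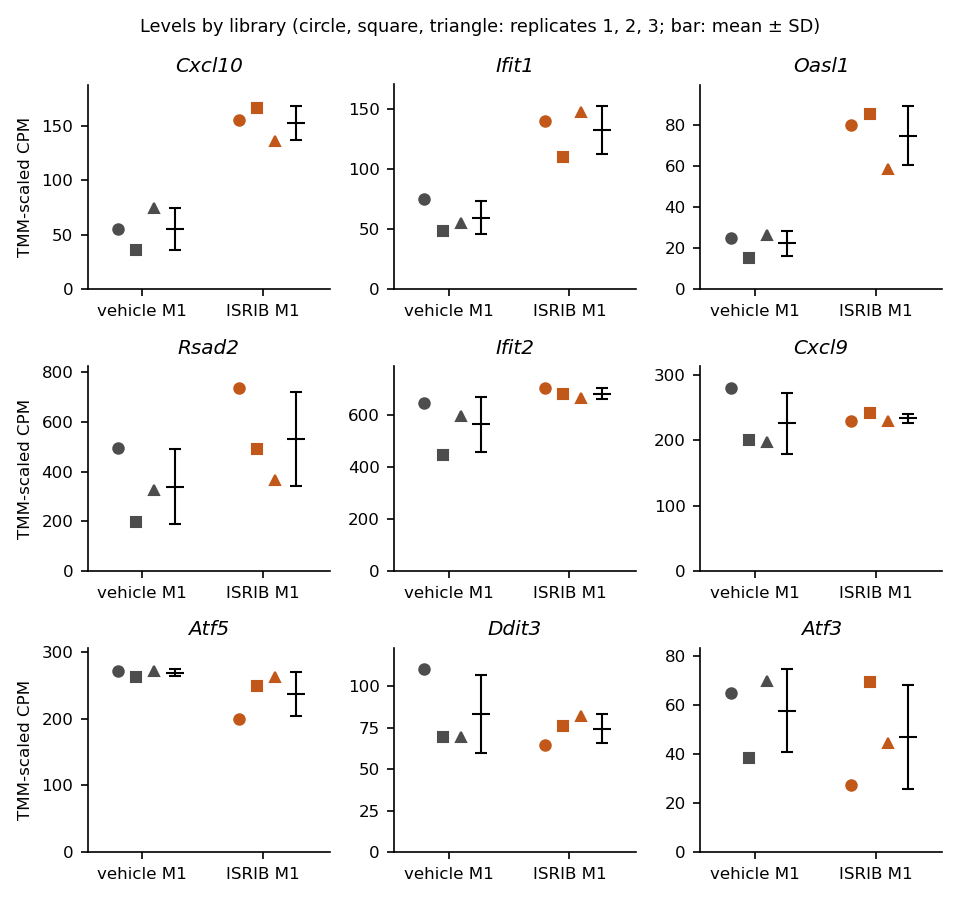
TMM-scaled CPM in each of the 6 M1 libraries for 6 interferon-stimulated and 3 ISR genes, with the mean and SD over 3 replicates at the side; the vertical axes start at 0 and differ between panels. The groups do not overlap for Cxcl10, Ifit1, Oasl1 and Ifit2, and they overlap for Rsad2, Cxcl9, Atf5, Ddit3 and Atf3.

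The inflammatory genes of the M1 state showed no difference that passed the test. Of 43 such genes 17 were tested, with 9 higher and 8 lower and a median log2 fold change of 0.05. Nos2, the inducible nitric oxide synthase, had 20, 12 and 38 counts with vehicle and 10, 30 and 24 with ISRIB, and its interval of -1.56 to 1.13 spans a 2-fold change both ways. Il1b, the interleukin 1β gene (opposite Il1bos), had 18, 12 and 20 counts with vehicle and 22, 26 and 23 with ISRIB, without overlap, at 0.43 (-0.94 to 1.80). Tnf and Il6 had too few counts to be tested, with 1, 2 and 2 against 2, 8 and 10 for Tnf and 0 in 5 of 6 libraries for Il6. Acod1, whose enzyme makes itaconate, had 126, 38 and 90 counts with vehicle and 71, 155 and 80 with ISRIB, at 0.18 (-0.60 to 0.96). Nfkb2, a subunit of NF-κB, had 182, 169 and 154 against 148, 195 and 121 counts, at -0.21 (-0.60 to 0.18). Psd, opposite Nfkb2, was bounded more tightly at -0.04 (-0.25 to 0.18), and so was Gm14023, opposite the interleukin 1α gene Il1a, at -0.04 (-0.38 to 0.30). Apobr, opposite the interleukin 27 subunit gene Il27, gave -0.32 (-0.69 to 0.06).

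Among 40 chemokine, chemokine receptor and migration genes 14 were tested, 9 higher and 5 lower, and Cxcl10 alone had an unadjusted p under 0.05. Ccl3, a chemokine for monocytes, had 257, 255 and 235 counts with vehicle and 297, 247 and 325 with ISRIB. Its log2 fold change of 0.14 (-0.17 to 0.46) was bounded within 1.5-fold. Ccl5 gave 0.05 (-0.69 to 0.78). Cxcl16, a membrane-bound chemokine, had 112, 126 and 110 against 114, 107 and 103 counts, at -0.18 (-0.60 to 0.24), and Zmynd15 opposite it, with 9521 to 10927 counts, gave -0.07 (-0.32 to 0.19). Cerkl, opposite the integrin gene Itga4, gave -0.04 (-0.28 to 0.20).

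Of 23 antigen presentation genes 11 were tested, 5 higher and 6 lower (median -0.07). Tap1, the peptide transporter, had 335, 294 and 300 counts with vehicle and 307, 321 and 264 with ISRIB, at -0.14 (-0.55 to 0.28), and B2m, the class I light chain, gave 0.19 (-0.55 to 0.94). Psme1, a proteasome activator subunit, had 22, 21 and 9 counts with vehicle and 48, 32 and 49 with ISRIB, without overlap, at 1.23 (0.20 to 2.26). Its adjusted p was 0.806 by the edgeR quasi-likelihood test, and it overlaps Emc9 by 14 bases. Emc9 had 473, 673 and 591 counts against 595, 588 and 586, at -0.05 (-0.38 to 0.27).

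Genes of resting or alternatively activated macrophages had the highest median of any list with more than 3 tested genes, 0.44 over 12 tested of 33, with 8 higher, 4 lower and 0 called. It was 0.06 over 29 genes when low counts were not filtered out. Cd163 and Folr2 passed the count filter through M0 cells, with log2 fold changes of -8.367 and -5.015 in vehicle M1 over vehicle M0 cells. They averaged 5.667 and 1.167 counts in M1 libraries, and their log2 fold changes under ISRIB were 1.163 and 1.125. Apoe, the lipid carrier, had 72, 85 and 118 counts with vehicle and 144, 110 and 146 with ISRIB, with overlap between libraries, at 0.47 (0.05 to 0.90). C1qc, a complement C1q chain, had 11, 13 and 16 counts against 39, 32 and 17, without overlap in CPM, at 1.06 (0.08 to 2.05). Cd163, a scavenger receptor, had 1, 1 and 8 against 10, 3 and 11 counts. Stab1, also a scavenger receptor (opposite Nt5dc2), had 327, 362 and 488 counts against 411, 421 and 450, at 0.05 (-0.30 to 0.40), and Nt5dc2 gave 0.06 (-0.20 to 0.32). The 13 tested macrophage markers had a median log2 fold change of 0.41, and 4 of them (Cd163, Msr1, C1qb and C1qc) are also in this list. Their summed levels, given above, overlapped between the groups. The part of macrophage content in these values was not tested.

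Lysosomal and phagosomal genes were the list with the most well-counted members, 6, with 23 of 35 tested, 13 higher and 10 lower (median 0.12) and 0 called. Ctsa, the protective protein of lysosomal glycosidases (opposite the lipid transfer protein gene Pltp), had 1893, 1926 and 2363 counts with vehicle and 2441, 2084 and 2723 with ISRIB, at 0.16 (-0.20 to 0.51). Psap, which encodes the saposins, gave -0.24 (-0.90 to 0.42). All 6 tested neighbours of lysosomal genes were bounded within 2-fold, for example Fdft1 opposite the cathepsin gene Ctsb at 0.09 (-0.11 to 0.28).

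In metabolism, 13 of 27 glycolysis and hypoxia genes were tested, 5 higher and 8 lower (median -0.21). Pfkp, a phosphofructokinase, gave -0.07 (-0.64 to 0.50), Pkm gave -0.42 (-1.46 to 0.62) and Aldoa gave -0.72 (-1.80 to 0.36). Hif1a, the hypoxia factor, had 12, 4 and 3 counts with vehicle and 13, 15 and 17 with ISRIB, with an interval of -0.76 to 3.05. Of 22 NRF2 antioxidant genes 10 were tested (median 0.15). Sqstm1, which encodes the autophagy adaptor p62 (opposite Mrnip), had 8, 4 and 11 counts with vehicle and 14, 35 and 24 with ISRIB, without overlap, at 1.57 (0.22 to 2.92). Fth1, the ferritin heavy chain, had 367, 246 and 456 against 262, 608 and 435 counts, at 0.20 (-0.27 to 0.67). Prdx1 gave -0.71 (-1.54 to 0.12).

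Cholesterol synthesis was represented by 3 tested genes of 22, and 2 of them were lower without overlap, as were 6.2% of all tested genes. The median of the 3 was -0.49, and it was 0.89 over 13 genes when low counts were not filtered out. Sqle, squalene epoxidase, had 61, 88 and 66 counts with vehicle and 60, 47 and 54 with ISRIB, at -0.49 (-0.97 to -0.01) and an unadjusted p of 0.0441. Mvd, mevalonate diphosphate decarboxylase, had 24, 22 and 30 against 12, 18 and 12 counts, at -0.93 (-1.85 to -0.01). The adjusted p of both was 0.831 by the edgeR quasi-likelihood test. Fdft1, squalene synthase, which lies opposite Ctsb, gave the value stated above.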

How the data were processed

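Polyadenylated RNA of 12 BMDM samples was sequenced from strand-specific TruSeq libraries on an Illumina NovaSeq, as the labels' protocols state. The authors deposited whole-number counts for 24552 gene symbols in all 12 samples, and a table of log2 values that equal the log2 of the count over a library factor plus 1, per the values. The submitters' processing notes name FastQC, HTSeq, DESeq2 and the mm10 build, and the aligner, annotation and strand setting are not given in the sources used here. Each column was matched to its sample by the sample description, and groups and replicate numbers came from the sample titles.

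Tests on the deposited counts used edgeR 4.0.16 (R 4.3.3). Over all 12 samples, filterByExpr (minimum count 10, minimum total 15) kept 2356 genes with 97.6% of counts, and TMM scaling, glmQLFit and glmQLFTest followed. The model had a mean for each of the groups over all 12 samples, with a common biological coefficient of variation of 0.275, and p-values were adjusted over all 2356 genes by Benjamini-Hochberg. Intervals (95%) use the standard error implied by the test and a t quantile at the gene's degrees of freedom. Overlaps with exons of the opposite strand come from GENCODE vM21, to which 24171 symbols were matched. The replicates differed by more than sampling noise, with a chi-square of 5.34 to 6.77 per degree of freedom over 745 genes. The code was tested on simulated data.

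Gene lists were written from general knowledge. The members, lists and rules were chosen with earlier results of these data known. Named genes are any called gene; the 5 largest increases and decreases among well-counted genes with an unadjusted p under 0.05 and no overlap; the 5 most counted and the 5 with the narrowest intervals; list members with an unadjusted p under 0.05 and the 3 most counted of each list; 14 stress and M1 genes; and the gene of lowest p with any gene called without 1 library. Other list members and neighbours named were chosen after their values were seen. Alternatives were DESeq2 1.42.0 (Wald test and size factors), limma 3.58.1 (voom, and the deposited log2 values), upper-quartile scaling, other count filters, the 6 M1 libraries alone, a replicate block, and leaving out each library or replicate number. Some results of the naming rule are not reported here.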

Additional observations from a re-analysis of the deposited data

How the results depend on the processing

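Over 18 settings no gene was called, except that leaving out 1 library at a time gave 0 to 1 calls: without the second ISRIB M1 library Rmdn1, a mitochondrial and microtubule-associated protein gene, was at -3.14 on the log2 scale, with 0.0445 as its adjusted p by the edgeR quasi-likelihood test. With all libraries it had 14, 18 and 9 counts with vehicle and 2, 20 and 1 with ISRIB, at -0.92 and an adjusted p of 0.88. At an unadjusted p under 0.05 there were 138 genes by DESeq2, 119 by limma-voom, 158 by limma on the deposited log2 values, 126 with the 6 M1 libraries alone and 355 of 10978 with no filter. The replicate block called 0 genes, with 141 at an unadjusted p under 0.05. Deviations of same-numbered libraries had r of 0.117, -0.0979 and -0.0262 over 745 genes, and those of other pairs ran from -0.108 to 0.127. With 3 libraries in each group, these values cannot tell whether same-numbered samples are paired.

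The number of well-counted genes bounded within 2-fold was 617 to 676 with libraries left out, and within 1.5-fold 293 to 370, beside 697 and 420 with all libraries. These fits hold fewer samples. The median absolute log2 fold change ran from 0.135 to 0.153, beside 0.121 with all libraries. With 1 library or 1 replicate number left out, medians of lists ran over these ranges: -0.547 to 0.074 for ISR targets, -0.353 to 0.418 for eIF2 genes, -0.521 to 0.558 for XBP1 and ATF6 targets, -0.077 to 0.696 for interferon-stimulated genes, -0.184 to 0.237 for antigen presentation, -0.154 to 0.262 for lysosomal genes, -0.544 to 0.044 for glycolysis and -0.728 to -0.173 for cholesterol synthesis. Further ranges were 0.318 to 0.548 for resting macrophage genes, -0.328 to -0.102 for the synthetases and -0.203 to 0.24 for M1 inflammatory genes. They were -0.042 to 0.267 for chemokine and migration genes and -0.225 to 0.453 for NRF2 genes. With no filter on low counts the median was 0.064 for resting macrophage genes and 0.891 for cholesterol synthesis. For cholesterol synthesis it was -0.199 at a minimum mean of 50 counts. The genes tested change between these settings. Of 233 list medians over all settings, 211 stayed within 1 SD of the reported value. A median within 1 SD may still have changed sign, and most of the ranges above cross 0. Of 65 named genes tested, 21 changed sign under at least 1 setting, and 1148 of 1149 values kept their side of the threshold. The lowest adjusted p with all libraries was 0.319 by the edgeR quasi-likelihood test, so no gene started near the threshold.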

Other observations

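Among tested genes, 36 had counts in 1 group of M1 libraries and 0 in all 3 of the other. In 7 of them the mean exceeded the floor of 3 counts in each library: Ankrd40 (0 with vehicle, 3, 7 and 6 counts with ISRIB), Ncoa3, Trim8 (4, 6 and 6 counts with vehicle, 0 with ISRIB), Hnrnpll, Recql4, Yars and Vgll4. For Trim8, a ubiquitin ligase of cytokine signalling, the vehicle mean was 1.88 times the floor, and for Ankrd40 the ISRIB mean was 1.66 times it. Neither ratio allows for the spread of the counts. The choice was made with the values in view, and none passed the edgeR quasi-likelihood test. Most of the 36 genes reached the count filter only through their M0 counts.

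Lyz2, the lysozyme gene and a macrophage marker, had 42, 38 and 52 counts with vehicle and 67, 106 and 53 with ISRIB, with overlap in CPM. Its log2 fold change was 0.69 (0.15 to 1.23). The unadjusted p was 0.0141 and the adjusted p 0.806 in the same edgeR quasi-likelihood test. Xcr1, a receptor known from dendritic cells, had 325 to 434 counts in all M1 libraries and Bst2 had 4 to 18. Of the other dendritic markers, Ccr7 and Tcf4 had counts in some libraries and 6 were at 0 in all.

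Small counts were more often even than odd. Of 15428 counts between 1 and 40 at symbols with no opposite-strand overlap, 70.1% were even, and of 10689 at symbols with one, 58.0% were.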
